A study of Homo sapiens with 16 samples.

Results

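The genes described here are 32 genes that make cholesterol and fatty acids or that set the rate at which cells do so. They were chosen by name, from the enzymes of the mevalonate and sterol pathways, the sterol sensors, and the enzymes of fatty acid synthesis, elongation, desaturation and activation. Earlier results of these data were known when genes were chosen. All 32 were found in the deposited expression table, and all 32 were among its 13564 genes that reached at least 10.1 on the linear scale in at least 2 libraries, which were the genes tested. Expression was measured by RNA sequencing in the MCF10A cell line, which is human mammary epithelium that does not form tumours, grown with epidermal growth factor, cholera toxin, insulin, hydrocortisone and horse serum. One stock overexpressed PHF8, a histone demethylase, and the Mock stock carried the empty vector. PHF8 and Mock cells were each taken at 24, 48 and 72 h of treatment with TGF-β1 (5 ng/ml), a cytokine that acts on epithelial cells, and without it, with 2 libraries per group and 16 in all. Each genotype was a single stock, the labels do not say whether replicates were separate cultures, and replicate 1 and replicate 2 came from different rounds of RNA-seq. P-values therefore measure the spread between these libraries, which may be technical.

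Cells build cholesterol from acetyl-CoA through mevalonate, squalene and lanosterol, and build fatty acids from acetyl-CoA through malonyl-CoA. Both routes are switched on by the SREBP transcription factors, made from SREBF1 and SREBF2, which SCAP carries to the Golgi for cleavage when sterols are scarce and which the INSIG proteins hold back in the endoplasmic reticulum when sterols are plentiful. SREBF2 is known mainly for driving sterol genes and SREBF1 mainly for driving fatty acid genes, and INSIG1 is itself a target of the pathway.

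Promoters of 28 of the 32 genes were matched in RefSeq (build GRCh38.p14). The promoters of MSMO1, NSDHL, INSIG1, SREBF2 and ELOVL6 are shown, as examples of the sterol enzymes, the regulators and the fatty acid genes: the 250 bases before the start of the gene, 5′ to 3′, with matches to 3 motifs in capitals.
MSMO1 (chr4:165327419-165327668, forward strand): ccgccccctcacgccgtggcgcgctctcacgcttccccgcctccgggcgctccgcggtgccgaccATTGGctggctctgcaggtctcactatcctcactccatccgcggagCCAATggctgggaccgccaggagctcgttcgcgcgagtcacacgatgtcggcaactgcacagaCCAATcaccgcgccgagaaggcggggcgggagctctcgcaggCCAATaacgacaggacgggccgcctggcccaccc
NSDHL (chrX:152830813-152831062, forward strand): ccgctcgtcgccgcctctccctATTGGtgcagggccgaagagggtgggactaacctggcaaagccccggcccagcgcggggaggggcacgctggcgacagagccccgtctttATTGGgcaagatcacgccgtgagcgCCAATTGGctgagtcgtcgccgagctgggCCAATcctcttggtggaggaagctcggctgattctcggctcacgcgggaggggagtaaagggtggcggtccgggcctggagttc
INSIG1 (chr7:155297628-155297877, forward strand): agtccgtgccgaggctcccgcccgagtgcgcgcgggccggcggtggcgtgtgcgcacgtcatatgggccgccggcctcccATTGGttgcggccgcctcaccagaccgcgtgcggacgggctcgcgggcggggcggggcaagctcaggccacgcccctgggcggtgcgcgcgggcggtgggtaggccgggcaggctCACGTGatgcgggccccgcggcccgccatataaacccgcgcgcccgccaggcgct
SREBF2 (chr22:41832855-41833104, forward strand): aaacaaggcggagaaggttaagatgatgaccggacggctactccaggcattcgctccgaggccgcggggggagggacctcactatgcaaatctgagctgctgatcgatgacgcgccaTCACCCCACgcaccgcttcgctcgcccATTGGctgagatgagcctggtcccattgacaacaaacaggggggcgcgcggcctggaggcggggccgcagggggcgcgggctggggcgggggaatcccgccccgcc
ELOVL6 (chr4:110198616-110198865, reverse strand): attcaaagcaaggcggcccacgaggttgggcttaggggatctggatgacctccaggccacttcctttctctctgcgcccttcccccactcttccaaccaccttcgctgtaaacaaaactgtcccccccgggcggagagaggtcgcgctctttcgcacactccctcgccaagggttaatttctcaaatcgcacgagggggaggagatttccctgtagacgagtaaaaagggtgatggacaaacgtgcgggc
The motifs were searched on both strands, from 250 bases before to 50 bases after the start. They were CCAAT (the box bound by NF-Y), CACGTG (an E-box) and TCACNCCAC (a sterol regulatory element), and no letters of the 3 motifs overlapped in the capitals shown, although 2 CCAAT matches on opposite strands overlapped in NSDHL. CCAAT or its reverse complement was in 18 of the 28 promoters (64.3%), against 35.7% of 27305 RefSeq promoters and 36.9% of those of tested genes. NSDHL held 5 matches and MSMO1 4. Among the fatty acid genes, SCD, ACLY, ACSS2 and ACSL3 held the box, while ELOVL6, ACACA, FADS1 and FADS2 did not. By response at 24 h, the box was in 8 of 12 promoters of genes that rose, in 0 of 2 of genes that fell and in 10 of 14 of genes not called. The E-box was in 3 of 28 (10.7%, against 7.43% of all promoters and 9.91% of the promoters of tested genes), among them INSIG1, and the sterol regulatory element was in 1 of 28 (SREBF2), against 1.15% of all promoters. These are counts of exact letters and were not tested. Elements spelled differently or lying outside the searched bases would not be counted.

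Levels are log2 expression as deposited. The values of a library summed to between 18838614 and 21208291 on the linear scale. This is their common scale after normalization by the authors, and sequencing depth cannot be read from it. PHF8 itself was 4.74 ± 0.166 higher (log2 difference ± SE) in the PHF8 stock than in the Mock stock, and FN1, a fibronectin gene that TGF-β1 is known to induce, was 5.08 ± 0.472 higher at 72 h than in untreated cells, as the labels imply. All 8 basal mammary markers were expressed, while 5 of 7 luminal, 3 of 7 fibroblast, 2 of 6 adipocyte and 2 of 7 endothelial and blood markers passed the filter. PGR, CD3E and HBB were at 0, and the adipocyte genes PLIN1, FABP4, LEP and CIDEC did not pass it. Some marker sums moved with TGF-β1. A linear sum is carried mostly by its highest genes. Median log2 levels were 9.55 for CD68 against 3.94 for PECAM1 in the blood list. In the adipocyte list they were 8.10 for PPARG against 3.56 for ADIPOQ, and LAMB3 had the highest basal median (16.72). Beside the calls below, 33.3% of all genes were called at 24 h, 31.2% at 48 h and 27.4% at 72 h. The summed linear level of the basal markers was 205027 to 281910 at 24 h in both stocks, against 117014 to 143102 untreated, and 4 of its 8 genes rose. The fibroblast sum was 1715.2 to 8090.7 at 24 h, against 321.27 to 5174 untreated, and 1 of its 3 tested genes rose at 24 h and 2 at 72 h. In untreated PHF8 cells alone it was 480.36 to 5174. The median log2 levels of these genes were 9.69 for COL1A1, 9.53 for DCN (highest 12.82) and 2.76 for COL1A2. COL1A2 thus had a median below the filter and passed it only through its higher libraries, so its direction is not separate support. The luminal sum was 10934 to 13352 at 24 h, against 8708.7 to 12291 untreated, with 1 gene higher and 1 lower of 5. The endothelial and blood sum was 541.99 to 1029.2 at 24 h, against 345.81 to 793.4 untreated, without overlap within either stock, and 1 of its 2 tested genes rose. The adipocyte sum was 220.61 to 385.8 at 24 h and 246.85 to 290.81 at 48 h, against 311.51 to 494.4 untreated, and of its 2 tested genes 0 were called at 24 h and 1 was lower at 48 h and at 72 h. In bulk libraries, fewer cells of a type and less RNA per cell cannot be told apart. The part of these markers in the results on lipid genes was not tested.

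The main question of the time course was how the epithelial cells changed under TGF-β1. The labels give a single untreated group per stock, so every time was compared with the same 4 untreated libraries. Hours of TGF-β1 and time in culture therefore cannot be told apart. After 24 h, 3 of the 7 genes of the mevalonate arm and 7 of the 10 genes of the sterol arm rose, while FASN and ACACA, the core enzymes of fatty acid synthesis, fell. In the mean of both stocks (4 libraries against 4), 14 of the 32 genes were called higher and 3 lower at 24 h than in untreated cells, where a call is an adjusted p under 0.05 in limma with Benjamini-Hochberg adjustment over all 13564 genes. Of all genes, 33.3% were called at 24 h, 17.1% higher and 16.3% lower. The genes that rose were IDI1, MSMO1, INSIG2, FADS1, INSIG1, NSDHL, STARD4, MVD, LSS, SQLE, EBP, ACAT2, DHCR7 and CYP51A1, by log2 differences of 0.48 to 0.89, that is 1.4-fold to 1.86-fold. Those that fell were ELOVL6, ACACA and FASN, by log2 differences of -0.42, -0.40 and -0.35. The median log2 difference of the 32 genes was 0.49, against -0.0078 for all genes tested. Leaving out 1 library gave 12 to 15 genes higher. The lower count became 0 without PHF8 untreated replicate 2 and 1 without Mock untreated replicate 2, Mock 24 h replicate 1 or PHF8 24 h replicate 1.

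**Figure D1:**
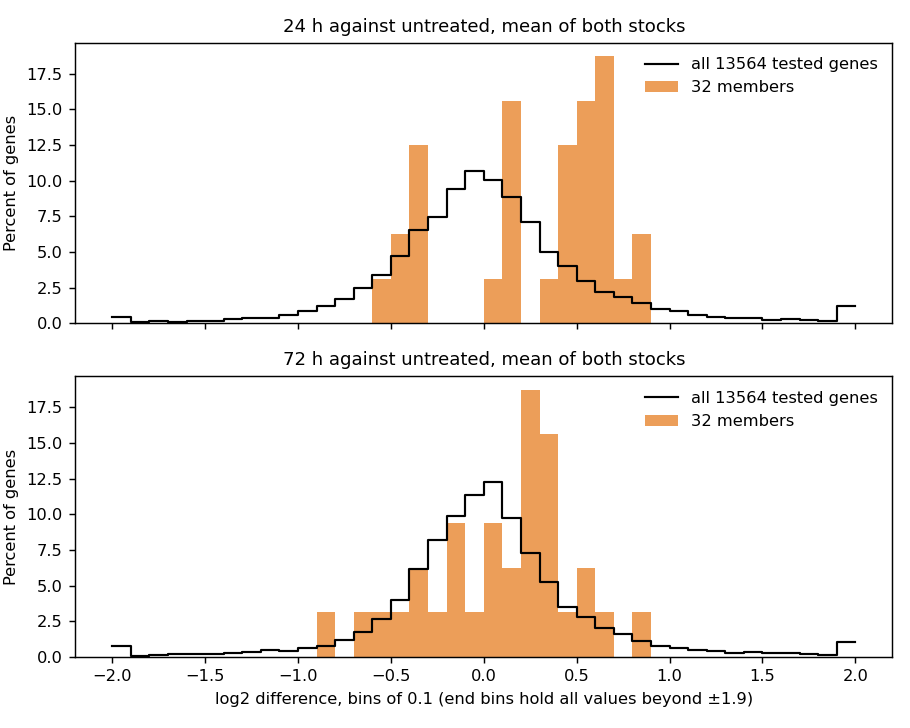
Share of genes (percent, y axis) by log2 difference between TGF-β1 and untreated cells (x axis, mean of both stocks), for the 32 lipid synthesis genes (bars) and all 13564 tested genes (line). At 24 h most bars lie to the right of the line, with a second small group below 0, and at 72 h they lie closer to the line (medians 0.49 and 0.18).

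Libraries of the same replicate number, that is of the same RNA-seq round, deviated together across groups, so a fit with the round as a block was made as well. Differences are the same in both fits, and each SE given is that of the fit without the block. With that replicate block, 20 genes were higher and 5 lower at 24 h, beside 49.5% of all genes. The additional calls were HMGCS1, FDPS, MVK, SCD, FADS2 and ACLY, higher, and SREBF1 and SCAP, lower. Not called either way were PMVK (-0.33 ± 0.142), FDFT1 (0.14 ± 0.0846), TM7SF2 (-0.53 ± 0.327), HSD17B7 (0.32 ± 0.135), SREBF2 (0.15 ± 0.118), ACSS2 (0.17 ± 0.393) and ACSL3 (0.013 ± 0.0787), as log2 difference ± SE. Without any test, 22 of 32 genes (68.8%) were higher at 24 h in all 4 pairs of the same stock and round, against 31.1% of all genes, and 6 (18.8%) were lower in all 4, against 32.7%. All 4 libraries at 24 h lay above all 4 untreated ones for 13 genes, where 16.2% of all genes did, and below them for 3, where 15.2% did.

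**Figure D2:**
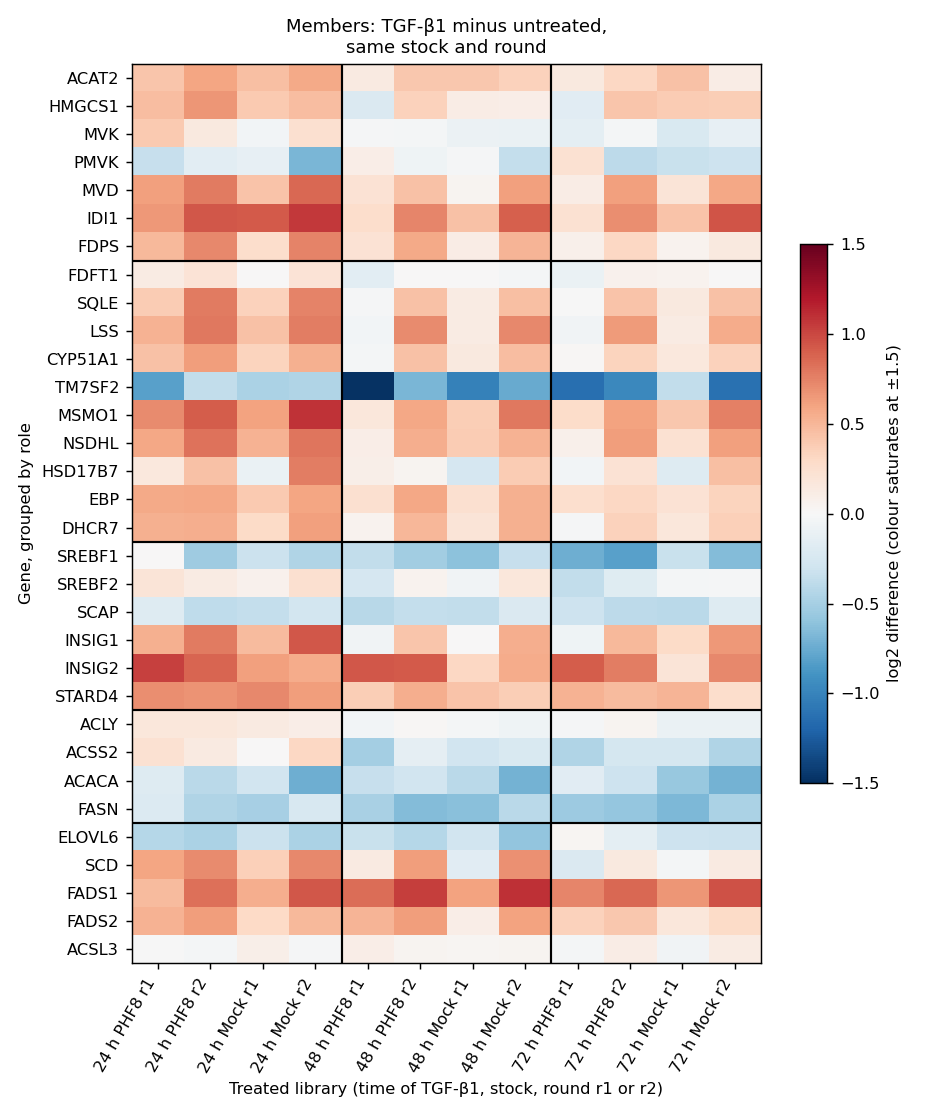
Log2 difference between each TGF-β1 library and the untreated library of the same stock and round (colour, red higher and blue lower), for 32 genes in 5 role groups separated by lines and for 12 treated libraries (columns, r1 and r2 being rounds). The 24 h columns are red over most of the mevalonate and sterol rows, and the ACACA and FASN rows are blue in all 12 columns.

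The rise was highest at 24 h and smaller afterwards. The 4-library mean was highest at 24 h for 23 of the 32 genes (71.9%), against 25.2% of all genes. It was highest untreated for 7, at 48 h for 2 (FADS1 and ACSL3) and at 72 h for 0. At 48 h, 7 genes were called higher and 5 lower, where 31.2% of all genes were called, 16.3% higher and 15.0% lower. At 72 h 6 were higher and 3 lower, where 27.4% of all genes were called, 14.3% higher and 13.0% lower. With the replicate block these counts were 16 and 7 at 48 h (47.7% of all genes) and 13 and 7 at 72 h (43.7%). Without any test, 13 genes (40.6%) were higher at 48 h in all 4 pairs of the same stock and round, against 29.4% of all genes, and 8 (25.0%) were lower, against 30.1%. At 72 h these were 12 (37.5%, against 28.1%) and 8 (25.0%, against 29.2%). All 4 treated libraries lay above all 4 untreated ones for 6 genes at 48 h and 7 at 72 h, where 16.3% and 15.2% of all genes did, and below them for 3 and 4, where 15.4% and 14.7% did. The median log2 difference of the 32 genes was 0.24 at 48 h and 0.18 at 72 h, against 0.0034 and 0.0026 for all genes. Leaving out 1 library changed the 48 h counts to 3 to 12 higher and 1 to 5 lower. The lowest higher count, 3, came without Mock untreated replicate 2, Mock 48 h replicate 2, PHF8 untreated replicate 2 or PHF8 48 h replicate 2, and the highest, 12, without Mock 48 h replicate 1. At 72 h the higher count was 3 without Mock untreated, Mock 72 h, PHF8 untreated or PHF8 72 h replicate 2, and the lower count was 1 without Mock 72 h replicate 1, PHF8 72 h replicate 1 or PHF8 untreated replicate 2. Of the 12 calls at 48 h, those of IDI1, INSIG2, FASN and FADS1 held in all 16 fits that each left out 1 library. The call was lost in 13 of them for CYP51A1 (adjusted p = 0.0498), 11 for SCAP, 8 for TM7SF2, 5 each for NSDHL, DHCR7 and ELOVL6, 4 for MSMO1 and 3 for ACACA. The highest adjusted p was 0.181 for CYP51A1 and 0.148 for DHCR7, both without Mock 48 h replicate 2, 0.112 for ELOVL6 without PHF8 untreated replicate 2 and 0.0666 for ACACA without Mock untreated replicate 2.

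Between 24 and 72 h, 28 of 32 genes were lower on average at 72 h, and 23 (71.9%) were lower in all 4 pairs of the same stock and round, against 17.5% of all genes. The median log2 difference of 72 h against 24 h was -0.26. None of the 32 was called in limma, where 4 of 13564 genes (0.0295%) were, 0.0147% higher and 0.0147% lower, although 11 of the 32 (34.4%) had an unadjusted p under 0.05, against 9.53% of all genes. With the replicate block ACSS2 was called lower (-0.53 ± 0.393, adjusted p = 0.0393), where 0.892% of all genes were called. With a block for each stock and round, 10 of the 32 were lower and ELOVL6 was higher, where 7.27% of all genes were called. The 10 were MVK, FDPS, SQLE, MSMO1, EBP, SREBF2, STARD4, ACLY, ACSS2 and SCD.

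The later rises also differed between rounds. The median log2 difference of the 32 genes from untreated was 0.38 in the first round and 0.58 in the second at 24 h, 0.038 and 0.41 at 48 h, and 0.051 and 0.27 at 72 h. The sign was the same in both rounds for 31 of 32 genes at 24 h, 26 at 48 h and 28 at 72 h. LSS at 48 h, for example, was higher by 0.039 in the first round and 0.72 in the second, and SQLE at 72 h by 0.066 in the first round and 0.43 in the second.

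**Figure D3:**
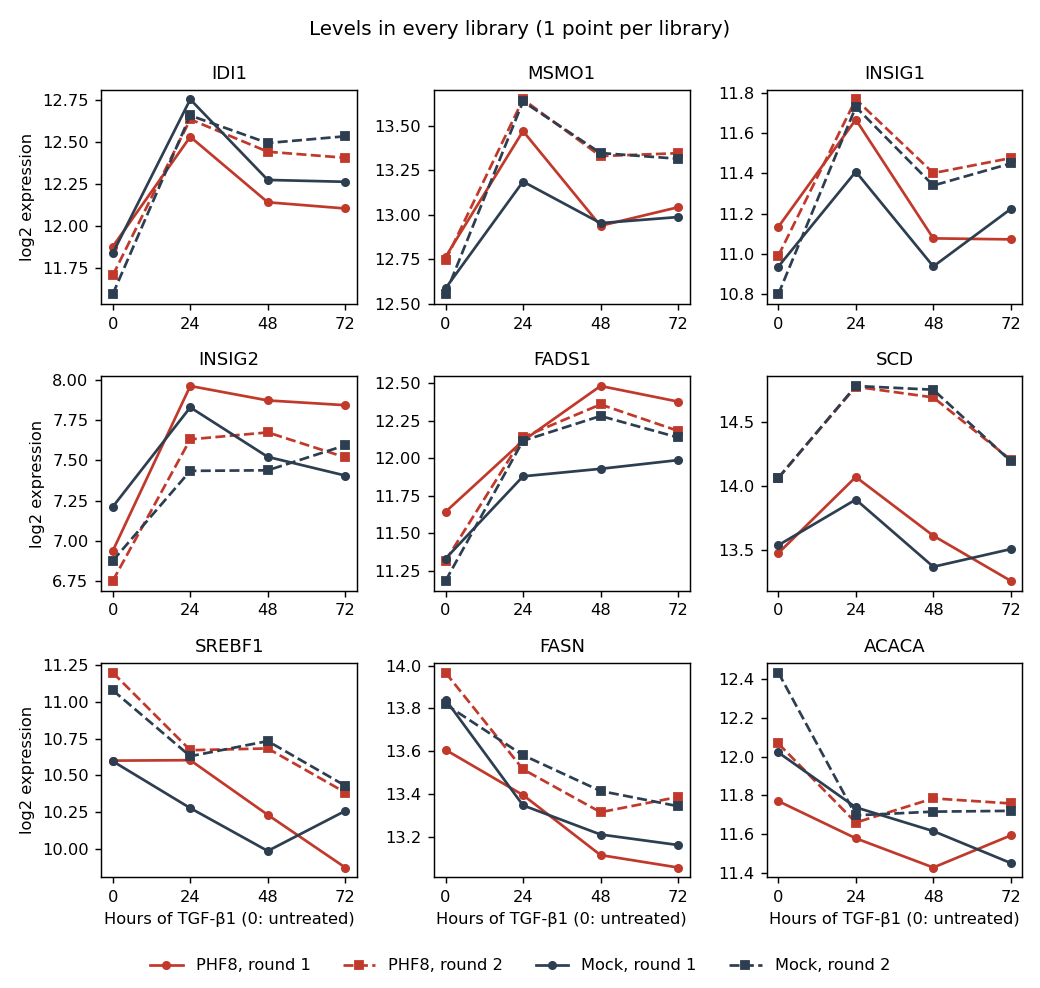
Log2 expression (y axis) of 9 genes in every library against hours of TGF-β1 (x axis, 0 being untreated), with 1 line per stock and round. IDI1, MSMO1 and INSIG1 peak at 24 h, FADS1 stays high to 72 h, SREBF1, FASN and ACACA decline, and SCD differs more between rounds than between stocks.

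The mevalonate arm (7 genes) makes isoprenoid units from acetyl-CoA. At 24 h 3 of its genes rose and none fell, and with the replicate block 6 rose. At 72 h 2 rose, and 3 with the block. Among all genes, 17.1% were called higher at 24 h and 14.3% at 72 h. With the block, 49.5% and 43.7% of all genes were called in either direction. IDI1, which isomerises isopentenyl diphosphate, changed most. In PHF8 cells IDI1 read 11.88 and 11.71 untreated, 12.53 and 12.64 at 24 h, 12.14 and 12.44 at 48 h and 12.11 and 12.41 at 72 h. In Mock cells IDI1 read 11.84 and 11.59 untreated, 12.76 and 12.66 at 24 h, 12.28 and 12.49 at 48 h and 12.26 and 12.54 at 72 h. All 4 libraries at each treated time lay above all 4 untreated ones. The log2 difference ± SE was 0.89 ± 0.109 at 24 h (adjusted p = 1.83e-04, limma) and 0.57 ± 0.109 at 72 h (adjusted p = 0.00271), and leaving out any single library did not end either call. MVD, the mevalonate diphosphate decarboxylase, followed. In PHF8 cells MVD read 10.05 and 9.88 untreated, 10.67 and 10.66 at 24 h, 10.26 and 10.32 at 48 h and 10.17 and 10.50 at 72 h. In Mock cells MVD read 10.01 and 9.91 untreated, 10.44 and 10.77 at 24 h, 10.05 and 10.52 at 48 h and 10.20 and 10.49 at 72 h. Treated and untreated levels did not overlap at 24 or 72 h, and the lowest treated values were those of the first round at 48 and 72 h. MVD was higher by 0.67 ± 0.126 at 24 h (adjusted p = 0.00223, limma) and by 0.38 ± 0.126 at 72 h (adjusted p = 0.044). Its 72 h difference was 0.16 in the first round and 0.60 in the second, and the 72 h call was lost when any one of Mock untreated replicate 1, PHF8 untreated replicate 1, PHF8 24 h replicate 1, PHF8 48 h replicate 1, Mock untreated replicate 2, Mock 72 h replicate 2, PHF8 untreated replicate 2, PHF8 24 h replicate 2, PHF8 48 h replicate 2 or PHF8 72 h replicate 2 was left out (adjusted p = 0.0544 to 0.154).

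ACAT2, the cytosolic thiolase that joins acetyl-CoA units at the entry to the pathway, was called higher at 24 h (0.51 ± 0.133, adjusted p = 0.0135, limma) and at 72 h only with the replicate block (0.25 ± 0.133, adjusted p = 0.188 without and 0.0271 with it). In PHF8 cells ACAT2 read 10.60 and 10.59 untreated, 11.02 and 11.18 at 24 h, 10.74 and 11.00 at 48 h and 10.75 and 10.90 at 72 h. In Mock cells ACAT2 read 10.12 and 10.51 untreated, 10.56 and 11.08 at 24 h, 10.52 and 10.86 at 48 h and 10.56 and 10.62 at 72 h. Mock untreated replicate 1 was the lowest library, and treated and untreated levels overlapped at all 3 times. The 24 h call was lost when any one of Mock untreated replicate 1 or Mock 24 h replicate 2 was left out (adjusted p = 0.0532 to 0.0538). Of the remaining enzymes, HMGCS1, the synthase that makes HMG-CoA, FDPS, which makes farnesyl diphosphate, and MVK, mevalonate kinase, were higher at 24 h by 0.49, 0.55 and 0.19 and were called with the block alone (adjusted p = 0.00144, 2.96e-04 and 0.048). PMVK, phosphomevalonate kinase, had its highest mean untreated and was not called at any of the 3 times. IDI1 shares 643 exonic bases with IDI2-AS1, ACAT2 shares exon sequence with TCP1, SOD2 and SOD2-OT1, HMGCS1 with an antisense gene model, MVK with MMAB, and FDPS with RUSC1-AS1, all on the opposite strand, and FDPS has 8 pseudogenes. The library kit marked strand, but the counting setting is not stated, so these values may hold reads of the partners.

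The squalene and sterol arm (10 genes) turns farnesyl diphosphate into cholesterol. At 24 h 7 of the 10 rose and none fell, with or without the replicate block. At 72 h 2 rose, and with the block 5 rose and 1 fell. Among all genes, 17.1% were called higher at 24 h and 14.3% at 72 h. With the block, 49.5% and 43.7% of all genes were called in either direction. MSMO1, the sterol methyl oxidase, and NSDHL, a dehydrogenase, act one after the other in removing the methyl groups of lanosterol, and both were called at all 3 times. In PHF8 cells MSMO1 read 12.76 and 12.74 untreated, 13.47 and 13.65 at 24 h, 12.94 and 13.33 at 48 h and 13.04 and 13.35 at 72 h. In Mock cells MSMO1 read 12.59 and 12.55 untreated, 13.19 and 13.63 at 24 h, 12.95 and 13.35 at 48 h and 12.99 and 13.31 at 72 h. Untreated libraries lay within a narrow band and all treated ones lay above it. MSMO1 was higher by 0.82 ± 0.139 at 24 h (adjusted p = 0.00128, limma) and by 0.51 ± 0.139 at 72 h (adjusted p = 0.0186). At 48 h it was higher by 0.48 ± 0.139 (adjusted p = 0.022). The 48 h call was lost when any one of Mock untreated replicate 2, Mock 48 h replicate 2, PHF8 untreated replicate 2 or PHF8 48 h replicate 2 was left out (adjusted p = 0.0603 to 0.0912), and the 72 h call when any one of Mock untreated replicate 2, Mock 72 h replicate 2, PHF8 untreated replicate 2 or PHF8 72 h replicate 2 was left out (adjusted p = 0.054 to 0.0767). In PHF8 cells NSDHL read 9.50 and 9.32 untreated, 10.08 and 10.13 at 24 h, 9.60 and 9.87 at 48 h and 9.58 and 9.95 at 72 h. In Mock cells NSDHL read 9.31 and 9.33 untreated, 9.83 and 10.13 at 24 h, 9.69 and 9.85 at 48 h and 9.54 and 9.94 at 72 h. NSDHL too had no overlap between treated and untreated libraries at any time. It was higher by 0.68 ± 0.123 at 24 h (adjusted p = 0.00193, limma) and by 0.39 ± 0.123 at 72 h (adjusted p = 0.0376). At 48 h it was higher by 0.39 ± 0.123 (adjusted p = 0.0344). The 48 h call was lost when any one of Mock untreated replicate 1, Mock untreated replicate 2, Mock 48 h replicate 2, PHF8 untreated replicate 2 or PHF8 48 h replicate 2 was left out (adjusted p = 0.0774 to 0.12), and the 72 h call when any one of Mock untreated replicate 1, Mock untreated replicate 2, Mock 72 h replicate 2, PHF8 untreated replicate 2 or PHF8 72 h replicate 2 was left out (adjusted p = 0.0836 to 0.145).

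SQLE, squalene epoxidase, CYP51A1, the lanosterol demethylase, and EBP, a sterol isomerase, rose at 24 h and were called at 72 h only with the block. In PHF8 cells SQLE read 12.88 and 12.69 untreated, 13.27 and 13.47 at 24 h, 12.87 and 13.14 at 48 h and 12.87 and 13.12 at 72 h. In Mock cells SQLE read 12.71 and 12.61 untreated, 13.07 and 13.36 at 24 h, 12.84 and 13.07 at 48 h and 12.86 and 13.05 at 72 h. In PHF8 cells CYP51A1 read 13.21 and 12.96 untreated, 13.66 and 13.58 at 24 h, 13.19 and 13.40 at 48 h and 13.23 and 13.30 at 72 h. In Mock cells CYP51A1 read 12.94 and 12.89 untreated, 13.28 and 13.42 at 24 h, 13.09 and 13.35 at 48 h and 13.10 and 13.24 at 72 h. For SQLE the first-round libraries at 48 and 72 h were back within the untreated range and the second-round ones were above it, and for CYP51A1 the first-round ones were within or just above that range. SQLE was higher by 0.56 ± 0.107 at 24 h (adjusted p = 0.00248, limma), and at 72 h by 0.25 (adjusted p = 0.111 without and 0.0323 with the block). CYP51A1 was higher by 0.48 ± 0.0888 at 24 h (adjusted p = 0.00211), and at 72 h by 0.21 (adjusted p = 0.0975 and 0.0499 with the block). In PHF8 cells EBP read 10.93 and 11.15 untreated, 11.49 and 11.74 at 24 h, 11.16 and 11.73 at 48 h and 11.18 and 11.46 at 72 h. In Mock cells EBP read 11.04 and 11.16 untreated, 11.44 and 11.74 at 24 h, 11.28 and 11.69 at 48 h and 11.26 and 11.49 at 72 h. All treated EBP values lay above the untreated ones. EBP was higher by 0.53 ± 0.146 at 24 h (adjusted p = 0.0169, limma) and by 0.28 at 72 h (adjusted p = 0.181 and 0.006 with the block). The 24 h call of EBP was lost when any one of Mock untreated replicate 1, PHF8 untreated replicate 1, Mock 24 h replicate 2 or PHF8 24 h replicate 2 was left out (adjusted p = 0.0519 to 0.0671). LSS, lanosterol synthase, and DHCR7, the last reductase of one branch, rose at 24 h by 0.63 and 0.50 and were not called at 72 h in either fit. FDFT1, squalene synthase, stayed between 12.68 and 13.09 in all 16 libraries and was not called at any time, and HSD17B7, a sterol ketoreductase, was not called either. CYP51A1 has 3 pseudogenes and HSD17B7 has 2, and CYP51A1 shares exons with 2 gene models on its strand and with CYP51A1-AS1. LSS shares exon sequence with 2 antisense gene models, FDFT1 with a non-coding gene on the opposite strand and TM7SF2 with VPS51, so the counts of these genes are less certain.

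TM7SF2, which encodes a sterol reductase, went the other way. In PHF8 cells TM7SF2 read 6.79 and 6.22 untreated, 5.99 and 5.85 at 24 h, 5.31 and 5.54 at 48 h and 5.67 and 5.26 at 72 h. In Mock cells TM7SF2 read 4.96 and 5.97 untreated, 4.48 and 5.51 at 24 h, 3.94 and 5.21 at 48 h and 4.58 and 4.85 at 72 h. Mock libraries of the first round were the lowest at every time. TM7SF2 was called lower at 48 h (-0.99 ± 0.327, adjusted p = 0.0398, limma) and with the block at 72 h (-0.90 ± 0.327, adjusted p = 0.0637 without and 0.028 with it). Treated and untreated levels overlapped at each time when stocks were pooled, and the 48 h call was lost when any one of Mock 48 h replicate 1, Mock 72 h replicate 1, PHF8 untreated replicate 1, PHF8 48 h replicate 1, Mock untreated replicate 2, Mock 72 h replicate 2, PHF8 untreated replicate 2 or PHF8 48 h replicate 2 was left out (adjusted p = 0.0511 to 0.151).

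Among the 6 genes of sterol sensing and regulation, 3 rose at 24 h and none fell, and with the replicate block 2 also fell. Across all genes, 17.1% were called higher and 16.3% lower at 24 h, and 49.5% in either direction with the block. INSIG1 and INSIG2 encode the proteins that retain SCAP in the endoplasmic reticulum. In PHF8 cells INSIG1 read 11.13 and 10.99 untreated, 11.67 and 11.77 at 24 h, 11.08 and 11.40 at 48 h and 11.07 and 11.48 at 72 h. In Mock cells INSIG1 read 10.94 and 10.80 untreated, 11.41 and 11.73 at 24 h, 10.94 and 11.34 at 48 h and 11.22 and 11.45 at 72 h. INSIG1 peaked in all 4 series at 24 h, and at 48 and 72 h its PHF8 first-round libraries were below the untreated one. It was higher by 0.68 ± 0.13 at 24 h (adjusted p = 0.00257, limma). At 72 h it was higher by 0.34 ± 0.13 (0.11 in the first round and 0.57 in the second; adjusted p = 0.074 without and 0.0149 with the block). In PHF8 cells INSIG2 read 6.94 and 6.75 untreated, 7.96 and 7.63 at 24 h, 7.87 and 7.67 at 48 h and 7.84 and 7.52 at 72 h. In Mock cells INSIG2 read 7.21 and 6.88 untreated, 7.83 and 7.43 at 24 h, 7.52 and 7.44 at 48 h and 7.41 and 7.59 at 72 h. INSIG2 treated libraries lay above all untreated ones at every time. INSIG2 was higher by 0.77 ± 0.143 at 24 h (adjusted p = 0.00222, limma), 0.68 ± 0.143 at 48 h and 0.65 ± 0.143 at 72 h (adjusted p = 0.00657), and leaving out any single library ended none of these 3 calls.

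The genes of the SREBP factors were compared next. In PHF8 cells SREBF1 read 10.60 and 11.20 untreated, 10.60 and 10.67 at 24 h, 10.23 and 10.68 at 48 h and 9.87 and 10.38 at 72 h. In Mock cells SREBF1 read 10.60 and 11.08 untreated, 10.28 and 10.63 at 24 h, 9.99 and 10.73 at 48 h and 10.26 and 10.43 at 72 h. SREBF1, the gene of the fatty acid regulator, was lowest at 72 h, where all 4 treated libraries lay below all 4 untreated ones. It was lower, with a log2 difference of -0.63 ± 0.206 at 72 h (adjusted p = 0.0409, limma) and, with the block, at 24 h (-0.32 ± 0.206, adjusted p = 0.017). The 72 h call was lost when any one of Mock 72 h replicate 1, PHF8 24 h replicate 1, PHF8 72 h replicate 1, Mock untreated replicate 2, Mock 72 h replicate 2, PHF8 untreated replicate 2 or PHF8 24 h replicate 2 was left out (adjusted p = 0.0507 to 0.154). In PHF8 cells SREBF2 read 11.27 and 11.32 untreated, 11.46 and 11.44 at 24 h, 11.02 and 11.36 at 48 h and 10.90 and 11.13 at 72 h. In Mock cells SREBF2 read 10.95 and 11.12 untreated, 11.01 and 11.36 at 24 h, 10.90 and 11.30 at 48 h and 10.92 and 11.11 at 72 h. SREBF2, the gene of the sterol regulator, kept its treated levels within or near the untreated range. Its log2 difference was 0.15 ± 0.118 at 24 h (adjusted p = 0.35, limma; 95% interval -0.11 to 0.41) and -0.15 ± 0.118 at 72 h (adjusted p = 0.395). At 72 h both genes were lower than untreated in all 4 pairs of the same stock and round, and the difference between their responses was not tested. SREBF1 shares exon sequence with RAI1 on the opposite strand and SREBF2 with SREBF2-AS1.

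SCAP, the escort of the SREBPs, and STARD4, a carrier of cholesterol between membranes, had differences of opposite sign. In PHF8 cells SCAP read 11.17 and 10.97 untreated, 10.97 and 10.59 at 24 h, 10.75 and 10.61 at 48 h and 10.85 and 10.57 at 72 h. In Mock cells SCAP read 11.18 and 10.86 untreated, 10.82 and 10.58 at 24 h, 10.82 and 10.64 at 48 h and 10.78 and 10.67 at 72 h. At 48 and 72 h all treated SCAP values lay below all untreated ones. SCAP was called lower at 48 h (-0.34 ± 0.118, adjusted p = 0.0471, limma), a call lost when any one of Mock untreated replicate 1, Mock 24 h replicate 1, Mock 48 h replicate 1, Mock 72 h replicate 1, PHF8 untreated replicate 1, PHF8 48 h replicate 1, Mock 24 h replicate 2, Mock 48 h replicate 2, Mock 72 h replicate 2, PHF8 untreated replicate 2 or PHF8 48 h replicate 2 was left out (adjusted p = 0.0508 to 0.158). Its log2 difference was -0.30 ± 0.118 at 24 h and -0.33 ± 0.118 at 72 h, called with the block (adjusted p = 0.00106 and 8.04e-04) and not without it (adjusted p = 0.0678 and 0.0613, limma). In PHF8 cells STARD4 read 9.78 and 10.12 untreated, 10.48 and 10.79 at 24 h, 10.15 and 10.67 at 48 h and 10.30 and 10.60 at 72 h. In Mock cells STARD4 read 9.54 and 9.96 untreated, 10.25 and 10.59 at 24 h, 9.97 and 10.34 at 48 h and 10.05 and 10.23 at 72 h. STARD4 levels were higher in PHF8 than in Mock cells in each of the 8 pairs of the same time and round. It rose by 0.68 ± 0.162 at 24 h (adjusted p = 0.00858, limma), with similar differences in both rounds (0.71 in the first round and 0.65 in the second). At 72 h it was higher by 0.44 ± 0.162 (adjusted p = 0.0641 without and 1.55e-04 with the block). STARD4 shares 124 exonic bases with STARD4-AS1 on the opposite strand.

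Of the 4 genes of acetyl-CoA supply and fatty acid synthesis, 2 fell at each time and none was called higher without the block. Across all genes, 16.3%, 15.0% and 13.0% were called lower at 24, 48 and 72 h. FASN, the fatty acid synthase, and ACACA, the acetyl-CoA carboxylase that supplies its malonyl-CoA, were lower than untreated at all 3 times in both stocks and both rounds. In PHF8 cells FASN read 13.61 and 13.97 untreated, 13.40 and 13.52 at 24 h, 13.12 and 13.32 at 48 h and 13.06 and 13.39 at 72 h. In Mock cells FASN read 13.84 and 13.82 untreated, 13.35 and 13.58 at 24 h, 13.21 and 13.41 at 48 h and 13.16 and 13.34 at 72 h. In PHF8 cells ACACA read 11.77 and 12.07 untreated, 11.58 and 11.66 at 24 h, 11.43 and 11.79 at 48 h and 11.60 and 11.76 at 72 h. In Mock cells ACACA read 12.02 and 12.43 untreated, 11.74 and 11.70 at 24 h, 11.62 and 11.72 at 48 h and 11.45 and 11.72 at 72 h. For both genes all treated libraries at 24 and 72 h lay below all untreated ones. FASN had log2 differences of -0.35 ± 0.11 at 24 h (adjusted p = 0.0317, limma), -0.54 ± 0.11 at 48 h and -0.57 ± 0.11 at 72 h (adjusted p = 0.00304), or 0.673 times the untreated level at 72 h. The 24 h call of FASN was lost when any one of Mock untreated replicate 1, Mock 24 h replicate 1, PHF8 24 h replicate 1, Mock untreated replicate 2 or PHF8 untreated replicate 2 was left out (adjusted p = 0.0698 to 0.125), and the 72 h call was not lost on leaving out any library. ACACA had -0.40 ± 0.117 at 24 h (adjusted p = 0.0219, limma) and -0.44 ± 0.117 at 72 h (adjusted p = 0.0167). Its 24 h call was lost when any one of PHF8 24 h replicate 1, Mock untreated replicate 2, Mock 24 h replicate 2 or PHF8 untreated replicate 2 was left out (adjusted p = 0.0581 to 0.0863), and its 72 h call when any one of Mock 72 h replicate 1, PHF8 72 h replicate 1, Mock untreated replicate 2 or PHF8 untreated replicate 2 was left out (adjusted p = 0.0602 to 0.0719).

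ACLY and ACSS2 make cytosolic acetyl-CoA, from citrate and from acetate. In PHF8 cells ACLY read 13.10 and 13.14 untreated, 13.27 and 13.31 at 24 h, 13.06 and 13.16 at 48 h and 13.09 and 13.18 at 72 h. In Mock cells ACLY read 13.26 and 13.34 untreated, 13.39 and 13.44 at 24 h, 13.23 and 13.27 at 48 h and 13.16 and 13.24 at 72 h. ACLY differed little between times, but was lower in PHF8 than in Mock cells in all 8 pairs. It was higher by 0.14 ± 0.0601 at 24 h, called with the block alone (adjusted p = 0.0224, against 0.089 in limma without it). In PHF8 cells ACSS2 read 10.69 and 11.36 untreated, 10.92 and 11.50 at 24 h, 10.18 and 11.22 at 48 h and 10.24 and 11.10 at 72 h. In Mock cells ACSS2 read 10.32 and 11.28 untreated, 10.32 and 11.59 at 24 h, 10.03 and 11.06 at 48 h and 10.06 and 10.83 at 72 h. ACSS2 was higher in the second round than in the first in every group, by more than any treatment difference. It was lower at 72 h by a log2 difference of -0.36 ± 0.393, called with the block (adjusted p = 0.0117) and not without it (adjusted p = 0.553, limma), and its 24 h difference of 0.17 ± 0.393 was not called. ACLY shares exon sequence with an antisense gene model.

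The 5 genes of elongation, desaturation and activation split. FADS1 and FADS2 encode the desaturases of polyunsaturated fatty acids. In PHF8 cells FADS1 read 11.64 and 11.32 untreated, 12.12 and 12.14 at 24 h, 12.48 and 12.36 at 48 h and 12.38 and 12.18 at 72 h. In Mock cells FADS1 read 11.33 and 11.18 untreated, 11.88 and 12.12 at 24 h, 11.93 and 12.28 at 48 h and 11.99 and 12.14 at 72 h. FADS1 differed from the sterol enzymes in that its mean was highest at 48 h, and all treated libraries lay above all untreated ones. It was higher by 0.70 ± 0.106 at 24 h, 0.89 ± 0.106 at 48 h and 0.80 ± 0.106 at 72 h (adjusted p = 2.91e-04, limma), a 1.75-fold level at 72 h, and leaving out any single library ended none of these calls. In PHF8 cells FADS2 read 11.21 and 11.62 untreated, 11.74 and 12.25 at 24 h, 11.73 and 12.26 at 48 h and 11.56 and 12.04 at 72 h. In Mock cells FADS2 read 11.38 and 11.72 untreated, 11.68 and 12.21 at 24 h, 11.48 and 12.32 at 48 h and 11.54 and 12.01 at 72 h. FADS2 was higher in the second round at every time. Its log2 difference was 0.48 ± 0.23 at 24 h and 0.30 ± 0.23 at 72 h, called with the block (adjusted p = 2.23e-04 and 0.00498) and not without it (adjusted p = 0.129 and 0.371, limma). FADS1 and FADS2 overlap on opposite strands by 490 exonic bases, so part of either signal could be the other's reads, and FADS2 also shares 49 exonic bases with FEN1 on its strand and has a pseudogene.

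ELOVL6, which lengthens the palmitate made by FASN, fell. In PHF8 cells ELOVL6 read 10.33 and 10.69 untreated, 9.91 and 10.22 at 24 h, 9.99 and 10.27 at 48 h and 10.36 and 10.54 at 72 h. In Mock cells ELOVL6 read 10.40 and 10.72 untreated, 10.07 and 10.24 at 24 h, 10.11 and 10.13 at 48 h and 10.08 and 10.39 at 72 h. All 4 libraries at 24 h and at 48 h lay below the untreated ones, and 72 h values overlapped with them. The log2 difference was -0.42 ± 0.126 at 24 h (adjusted p = 0.024, limma) and -0.19 ± 0.126 at 72 h, called with the block alone (adjusted p = 0.0318). Its 24 h call was lost when any one of Mock 24 h replicate 1, PHF8 24 h replicate 1, Mock untreated replicate 2 or PHF8 untreated replicate 2 was left out (adjusted p = 0.0713 to 0.0956). SCD, the stearoyl-CoA desaturase, ranged from 13.26 to 14.78. It was higher by 0.59 ± 0.379 at 24 h, called with the block (adjusted p = 0.00195) and not without it (adjusted p = 0.257, limma), and by 0.0062 ± 0.379 at 72 h. ACSL3, which activates fatty acids, stayed between 12.70 and 13.00 in all 16 libraries and was not called at any time. SCD has a pseudogene, and ACSL3 shares exon sequence with an antisense gene model.

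**Figure D4:**
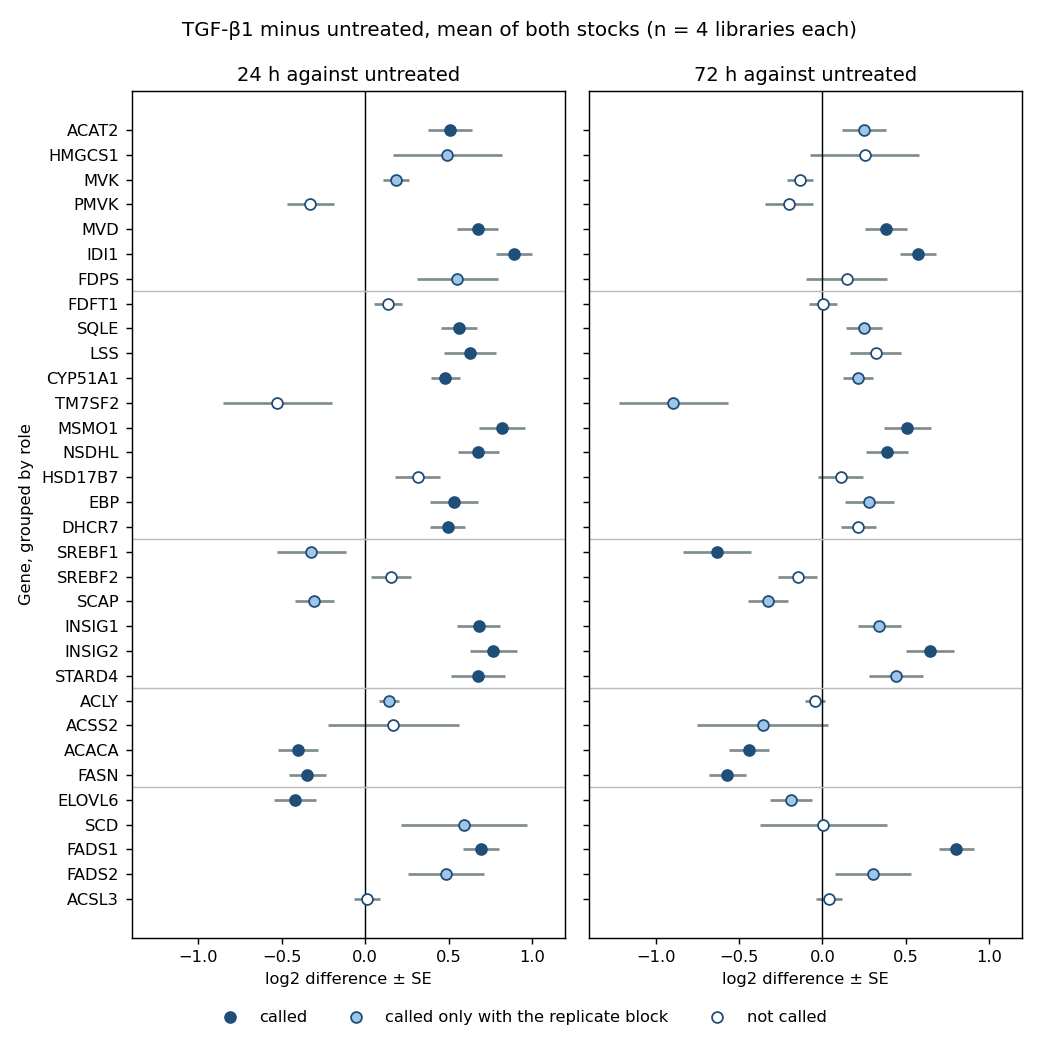
Log2 difference ± SE (x axis) of TGF-β1 against untreated cells at 24 h (left) and 72 h (right), mean of both stocks with 4 libraries on each side, for 32 genes ordered by role. Dark points were called, light points were called only with the replicate block and white points were not called. IDI1, at 0.89, lies farthest right at 24 h and most sterol genes are nearer to 0 at 72 h, while FASN, ACACA and SREBF1 lie below 0 at both times.

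The response was also compared within each stock, with 2 libraries on each side. In PHF8 cells 10 of the 32 genes were higher and 0 lower at 24 h, where 11.7% of all genes were called, 7.01% higher and 4.71% lower. At 48 h 2 were higher and 1 lower, against 12.6% of all genes, 6.92% higher and 5.68% lower. At 72 h 2 were higher and 1 lower, against 9.39% of all genes, 5.22% higher and 4.17% lower. In Mock cells 8 were higher and 0 lower at 24 h, where 17.3% of all genes were called, 9.92% higher and 7.39% lower. At 48 h 2 were higher and 2 lower, against 17.3% of all genes, 9.72% higher and 7.58% lower. At 72 h 2 were higher and 2 lower, against 14.4% of all genes, 8.29% higher and 6.07% lower. With the replicate block PHF8 cells had 18 higher and 3 lower at 24 h (29.3% of all genes) and Mock cells 18 and 5 (35.9%). INSIG2 at 72 h was higher by 0.84 ± 0.203 in PHF8 cells and by 0.46 ± 0.203 in Mock cells, and FADS1 by 0.80 ± 0.15 and 0.81 ± 0.15. A joint limma test of the difference in response between PHF8 and Mock cells over the 3 times called 0 of 13564 genes, and 0 with the block. An unadjusted p under 0.05 was found for 60 genes (0.442%), and for 158 (1.16%) with the block. Both shares are smaller than the share of 0.05 that such a threshold gives where no gene differs, so the test was conservative. None of the 60 was one of the 32, whose lowest unadjusted p was that of INSIG2 (0.384). A p above the threshold does not show that the stocks responded alike. Without PHF8 untreated replicate 2, 0 of the 32 were called at 24 h in PHF8 cells, 4 without PHF8 untreated replicate 1, and 1 without either PHF8 24 h replicate. Without Mock untreated replicate 1, Mock untreated replicate 2 or Mock 24 h replicate 2, 2, 1 and 1 were called higher at 24 h in Mock cells.

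The last comparison was between the PHF8 and Mock stocks. As each genotype was a single stock, PHF8 overexpression cannot be told apart from other differences between the stocks. Averaged over the 4 conditions (8 libraries against 8), 0 of the 32 were called in limma, where 1.69% of all genes were, 1.2% higher and 0.487% lower, and 6 of the 32 (18.8%) had an unadjusted p under 0.05, close to the 16.2% of all genes. In untreated cells alone 0 of the 32 were called, with PHF8 the single gene called of 13564 (0.00737%) and 634 genes (4.67%) at an unadjusted p under 0.05. With the replicate block, 4 of the 32 were called in the mean of 4 conditions, where 9.11% of all genes were. These were TM7SF2, ACAT2 and STARD4, higher in PHF8 cells, and ACLY, lower. TM7SF2 was higher by 0.89 ± 0.231 (adjusted p = 0.0872 without and 0.0244 with the block, limma), and the difference was 1.45 in the first round and 0.33 in the second. ACAT2 was higher by 0.24 ± 0.0937 (adjusted p = 0.234 and 0.0261) and STARD4 by 0.25 ± 0.115 (adjusted p = 0.322 and 0.00721). ACLY had a log2 difference of -0.13 ± 0.0425 (adjusted p = 0.176 and 0.0348), with nearly the same value in both rounds (-0.13 and -0.12). Without Mock 48 h replicate 2, 1 gene was called in the fit without the block.

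Without any test, 7 of the 32 (21.9%) were higher in PHF8 than in Mock cells in all 8 pairs of the same time and round, against 6.91% of all genes. These were ACAT2, SQLE, LSS, CYP51A1, TM7SF2, STARD4 and FADS1. In that order, their first-round differences were 0.19 to 0.49, 0.016 to 0.20, 0.099 to 0.36, 0.10 to 0.38, 1.09 to 1.84, 0.18 to 0.25 and 0.24 to 0.55. The second-round ones were 0.081 to 0.28, 0.068 to 0.11, 0.0059 to 0.10, 0.050 to 0.16, 0.26 to 0.41, 0.16 to 0.36 and 0.024 to 0.13. ACLY was the single gene (3.13%) lower in all 8, against 5.06% of all genes. The median log2 difference of the 32 was 0.067, and it was 0.098 in the first round and 0.047 in the second. The 95% interval of the difference was -0.072 to 0.26 for SQLE, -0.030 to 0.34 for SREBF2, -0.11 to 0.30 for INSIG1 and -0.22 to 0.13 for FASN. For SREBF1 the interval was -0.29 to 0.35 and for SCD -0.58 to 0.60.

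**Figure D5:**
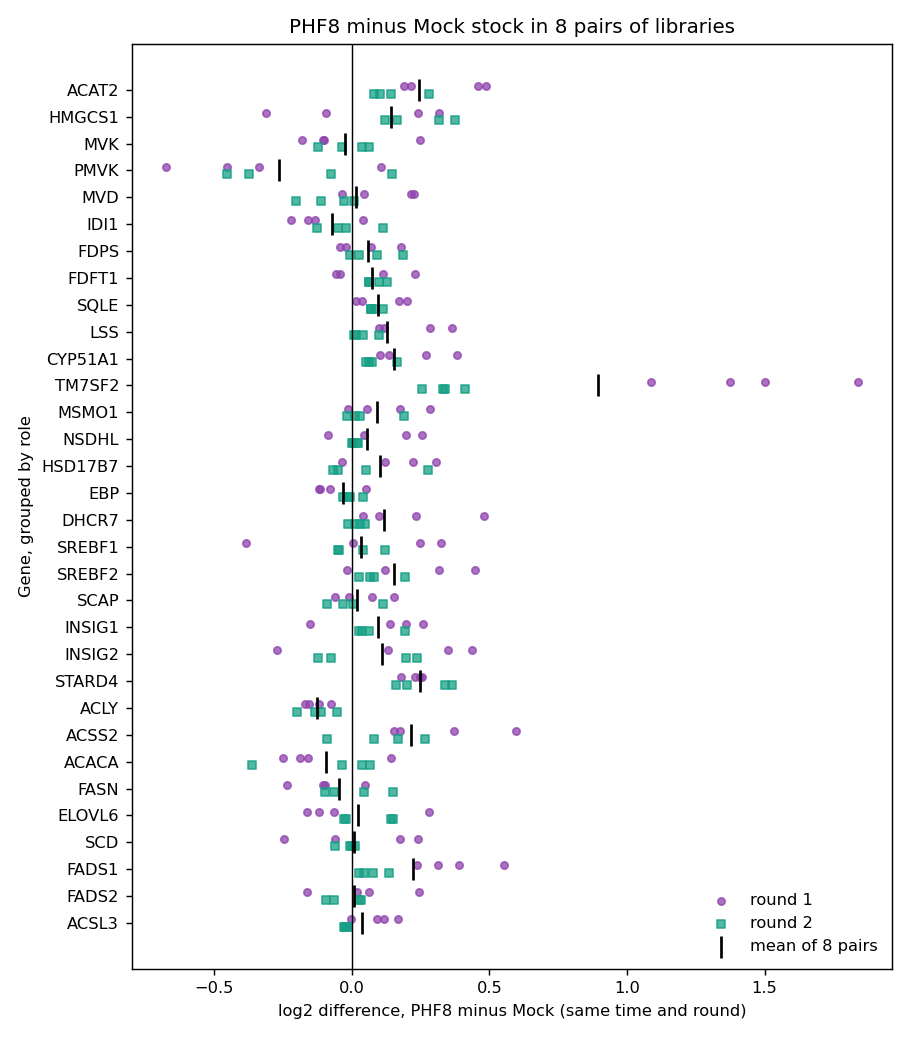
Log2 difference between PHF8 and Mock cells (x axis) for the 32 genes (rows) in 8 pairs of libraries of the same time and round, with circles for the first round, squares for the second and a bar for the mean. Most genes scatter around 0, TM7SF2 lies at 1.09 to 1.84 in the first round and 0.26 to 0.41 in the second, and all 8 ACLY points lie below 0.

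Neighbouring genes of lipid metabolism were called in both directions. Of 23 further genes of sterol and fatty acid synthesis, 4 were higher and 4 lower at 24 h in the mean of both stocks, and at 72 h 1 was higher and 6 lower, with median log2 differences of 0.088 at 24 h and 0.050 at 72 h. The shares called in either direction, 34.8% at 24 h and 30.4% at 72 h, were close to the 33.3% and 27.4% of all genes. By direction, all genes had 17.1% higher and 16.3% lower at 24 h, and 14.3% and 13.0% at 72 h. The split of the list's 72 h calls between directions was not tested. The gene that rose at 72 h was FADS3 (0.66 ± 0.212), a relative of the desaturases. Those that fell were the fatty acid activators ACSL1 (-1.49 ± 0.174), ACSL4 (-0.39 ± 0.121) and ACSL5 (-1.67 ± 0.264), the phosphatidate phosphatase LPIN1 (-1.30 ± 0.145), the elongase ELOVL7 (-0.44 ± 0.1) and the sterol-regulated membrane protein TMEM97 (-0.41 ± 0.138). Values in parentheses are log2 differences ± SE at 72 h, all called in limma. The calls of FADS3, ACSL4 and TMEM97 were lost in 5, 6 and 9 of 16 fits that each left out 1 library, with the highest adjusted p of 0.144, 0.125 and 0.168 without PHF8 untreated replicate 2, Mock untreated replicate 2 and Mock 72 h replicate 2. With the block, 7 were higher and 5 lower at 24 h and 5 higher and 6 lower at 72 h, again close to all genes (52.2% against 49.5% at 24 h and 47.8% against 43.7% at 72 h).

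Among 7 tested targets of the sterol-sensing receptor LXR and efflux genes, 1 was higher and 2 lower at 24 h, and 0 were higher and 3 lower at 72 h. That is 42.9% at each time, against 33.3% and 27.4% of all genes. By direction, all genes had 17.1% higher and 16.3% lower at 24 h, and 14.3% and 13.0% at 72 h. The 3 were the ubiquitin ligase MYLIP (-1.24 ± 0.343), the receptor gene NR1H3 (-1.03 ± 0.216) and the acyltransferase LPCAT3 (-0.36 ± 0.0894). Among 11 tested genes of fatty acid oxidation, 2 were higher and 1 lower at 24 h, and 1 was higher and 6 lower at 72 h, with median log2 differences of -0.23 and -0.34. The shares called were 27.3% at 24 h and 63.6% at 72 h, against 33.3% and 27.4% of all genes. The nuclear receptor gene PPARD (1.41 ± 0.319) rose, and HADHA (-0.32 ± 0.077) and HADHB (-0.58 ± 0.14), the subunits of the trifunctional protein, ACADM (-0.53 ± 0.0807), a dehydrogenase of medium-chain substrates, CPT2 (-0.34 ± 0.109), a carnitine transferase, ETFDH (-0.61 ± 0.208), an electron carrier, and PPARGC1A (-1.16 ± 0.328), a coactivator, fell. With the block the counts in fatty acid oxidation were 4 higher and 3 lower at 24 h and 1 higher and 7 lower at 72 h (63.6% and 72.7%, against 49.5% and 43.7% of all genes). Leaving out 1 library ended the 72 h call in 12 of 16 fits for ETFDH, 9 for CPT2, 5 for PPARGC1A, 4 for MYLIP and 1 for LPCAT3, with the highest adjusted p of 0.163 without PHF8 72 h replicate 2, 0.144 and 0.0933 and 0.0844 without Mock untreated replicate 2, and 0.0509 without PHF8 72 h replicate 1.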

How the data were processed

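Values are on a log2 scale, as deposited, for 16 libraries. Per the submitters' processing notes, TopHat2 2.0.13, featureCounts, Subread 1.4.6, DESeq2 and hg19 were used, and per the labels reads had 50 bases and the kit depleted ribosomal RNA. The transform behind the log2 scale and the counting strand are not given in the sources used here. If it shrinks low values, differences of weakly expressed genes are understated. No counting interval is given. Of 23368 entries, 28 had a date as symbol and were left out. No pseudocount was added. Another deposited sheet had 4 columns of values that match no sample and were not used.

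Genes at 10.1 or more on the linear scale in at least 2 of 16 libraries (13564) were tested with limma 3.58.1 (R 4.3.3), with a mean-variance trend and 1 mean per group over all libraries (8 residual degrees of freedom, 7 with the replicate block). P-values were adjusted by Benjamini-Hochberg over all genes in each of 13 comparisons, two-sided. The fit was run on simulated data with independent noise in each library, which left out the deviations shared by libraries of a round. The replicate block is paired by RNA-seq round: per the labels replicates 1 are from the first round and replicates 2 from the second, and deviations from group means correlated between same-numbered libraries at 0.206 to 0.749 (median 0.461, 28 pairs of groups). Alternatives were no filter, quantile normalization, no trend, the replicate block, a stock-by-round block, only the groups compared, and leaving out each library. Values of every library are given for genes called at 72 h or between stocks with or without the block, and for INSIG1, INSIG2, SREBF1 and SREBF2. Of the further lists, genes called at 72 h are named. Genes and lists were chosen with earlier results of these data known. Overlaps and pseudogenes come from GENCODE v29, promoters from RefSeq.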

Additional observations from a re-analysis of the deposited data

How the results depend on the processing

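All results named here are counts of the 32 genes called, higher then lower. With the replicate block, the lower count at 24 h in the mean of both stocks was 5 instead of 3, at 48 h the higher count was 16 instead of 7, and at 72 h the counts were 13 and 7 instead of 6 and 3. With the stock-by-round block these were 6, 16, and 15 and 7. The share of all genes called rose as well. At 24, 48 and 72 h it was 49.5%, 47.7% and 43.7% with the replicate block. With the stock-by-round block it was 53.8%, 51.9% and 47.9%, against 33.3%, 31.2% and 27.4% without a block. Within PHF8 cells the counts became 18 and 3 (replicate block) or 18 and 4 (stock-by-round block) at 24 h instead of 10 and 0, 8 and 5 or 8 and 6 at 48 h instead of 2 and 1, and 6 and 3 or 7 and 6 at 72 h instead of 2 and 1. Within Mock cells they became 18 and 5 with either block at 24 h instead of 8 and 0, 9 and 5 or 11 and 6 at 48 h instead of 2 and 2, and 8 and 5 or 10 and 7 at 72 h instead of 2 and 2. At 72 h against 24 h they became 0 and 1 or 1 and 10 instead of 0 and 0, and PHF8 against Mock gave 3 and 1 with the replicate block instead of 0 and 0. Shares of all genes in PHF8 cells were 29.3%, 28.2% and 23.4% or 35.4%, 34.2% and 30.0%, against 11.7%, 12.6% and 9.39%. In Mock cells they were 35.9%, 34.9% and 31.5% or 41.6%, 40.4% and 37.4%, against 17.3%, 17.3% and 14.4%. At 72 h against 24 h they were 0.892% or 7.27%, against 0.0295%, and for PHF8 against Mock 9.11%, against 1.69%.

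With only the groups compared in the fit, the lower count was 1 at 24 h and 1 at 48 h in the mean of both stocks. PHF8 cells then had 0 higher at all 3 times and 0 lower at 48 and 72 h, and Mock cells had 4 higher at 24 h, 1 higher and 0 lower at 48 h and 1 lower at 72 h. In that fit 26.6% and 25.3% of all genes were called at 24 and 48 h in the mean of both stocks. The share at 24, 48 and 72 h was 0.538%, 2.62% and 1.70% in PHF8 cells and 9.83%, 8.15% and 14.6% in Mock cells. Without the trend the lower count was 0 in PHF8 cells at 48 and 72 h and in Mock cells at 48 h. Without the filter it was 0 in PHF8 cells at 72 h, and after quantile normalization it was 2 in Mock cells at 24 h. Of all genes, 11.4% and 8.52% were called without the trend in PHF8 cells at 48 and 72 h, and 16.1% in Mock cells at 48 h. The share was 7.49% without the filter and 17.8% after quantile normalization in the comparisons just named.

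Leaving out 1 library gave 0 to 4 lower at 24 h, 3 to 12 higher and 1 to 5 lower at 48 h, and 3 to 7 higher and 1 to 4 lower at 72 h in the mean of both stocks. The ranges were 0 to 10 higher at 24 h, 1 to 2 higher and 0 to 1 lower at 48 h, and 0 to 2 higher and 0 to 1 lower at 72 h in PHF8 cells. In Mock cells they were 1 to 9 higher and 0 to 1 lower at 24 h, 1 to 3 higher and 0 to 2 lower at 48 h, and 0 to 2 higher and 0 to 2 lower at 72 h. PHF8 against Mock had 0 to 1 higher. Without Mock 48 h replicate 2, SCD at 48 h had a log2 difference of -0.024 in the mean of both stocks, against 0.32 with it, and FADS2 at 48 h in Mock cells one of -0.068. Over all fits without 1 library they ranged from -0.024 to 0.67 and from -0.068 to 0.77. Fits that use fewer libraries have fewer degrees of freedom, and the cause of the other changes was not tested. Without read counts, what depth limits could not be set.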
